A study of Oryza sativa Japonica Group with 12 samples.

Results

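The lines compared here were CH8 and CH9, which are the japonica rice varieties ‘Sanghaehyangheolua’ and ‘Shinseonchalbyeo’. Both were inbred parents of F1 hybrids that show hybrid weakness, and both were described by the study as waxy. CH8 has purple pericarp and is aromatic, whereas CH9 has white pericarp. Total RNA of whole plants at tillering, grown in a greenhouse without any further treatment, was hybridized to Affymetrix GeneChip arrays, 2 for each line, which the labels call biological replicates. The methods describe 1 more replicate for each line, every one from a separate plant, and it was not analysed here. The p-values below measure only the spread between replicate arrays, estimated over all 12 arrays of the series rather than these 4 alone. These 4 arrays were taken by their labels from 12 in the series, which also holds 2 arrays each of the aromatic parent CH7 (‘Aranghyangchalbyeo’) and of the hybrids CH7/8, CH7/9 and CH8/9. Of 54922 probe sets, 24080 carried a single listed gene, and these measured 23837 genes, of which 2742 had a name rather than a locus code. The arrays were made from whole plants, so fewer cells of a type and less RNA per cell cannot be told apart in any value below.

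Inbred rice varieties differ at many places in the genome, and an F1 hybrid carries both parents' copies of each gene. Array probes are short and designed on a reference genome, so a sequence difference or a missing copy in one variety lowers a signal as fewer transcripts do, and these cannot be told apart here. Hybrid weakness in rice is known to arise where copies from both parents meet, which is why parents that grow normally are compared with each other and with their hybrids.

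Levels are given here as log2 of the linear intensities in the deposited table, so 1 unit is a 2-fold difference. The array medians lay between 3.45 and 3.53 for the CH8 and CH9 arrays, and their first quartiles between 2.25 and 2.29. The replicates of CH9 correlated at r = 0.984 over all probe sets and differed by 2-fold or more at 1554. Those of CH8 were further apart, with r = 0.969 and 2973 such probe sets. CH8 replicate 1 was closer to CH8/9 replicate 1 (r = 0.982) than to its own replicate, and it was also slightly closer to CH9 replicate 2 (r = 0.972). In the hybrids, CH7/8 replicate 2 stood apart. It correlated at 0.966 with CH7/8 replicate 1, at 0.981 with CH8 replicate 1 and at 0.984 with CH8/9 replicate 1, but at 0.945 and 0.951 with the CH7 arrays. Counts and calls between CH7/9 and CH7/8 are therefore also given without that array. On the linear scale, 4 leaf markers, genes of the small subunit of Rubisco and of chlorophyll a/b binding proteins, were summed. The sum was 307.2 and 327.1 in CH8 against 354 and 393.6 in CH9, and its part in the results was not tested. The members did not move together. The Rubisco genes RBCS (log2 0.46) and RBCS1 (0.64) were higher in CH9 and CAB2R (-0.33) was lower. CAB1R was near the floor, and none was called. Endosperm markers were near the floor in all 4 arrays, with a sum of 16.7 to 17.7 over 4 genes, and so were 2 pollen markers, with a sum of 7.3 to 9.2. Of 6 actin and ubiquitin reference genes none was called, and their differences lay between -0.06 and 0.51. UBQ1 read 8.26 and 8.03 in CH8 and 8.20 and 8.27 in CH9, a difference of 0.09 ± 0.14 (SE). ACT1 read 10.08 and 9.47 against 9.86 and 9.83.

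Few probe sets separated the parents clearly. With limma fitted over all 12 arrays, 322 probe sets (0.586%) were called between CH9 and CH8 at a Benjamini-Hochberg adjusted p of at most 0.05 and a difference of at least 2-fold. Of these, 166 were higher (0.302%) and 156 lower (0.284%) in CH9. An unadjusted p under 0.05 was reached by 4851 probe sets (8.83%). Among probe sets with a single gene, 172 (0.714%) were called, 94 higher (0.39%) and 78 lower (0.324%) in CH9. The gene had a locus code only at 157 of them (0.736% of such probe sets) and a name at 15 (0.544%). Counted once per gene, 171 genes were called (0.717%). Probe sets with no listed gene held another 150 calls (0.488%), which cannot be described by gene. Both arrays of one line lay above both of the other at all 322 called probe sets (100%), which was also true of 40% of all probe sets.

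**Figure D1:**
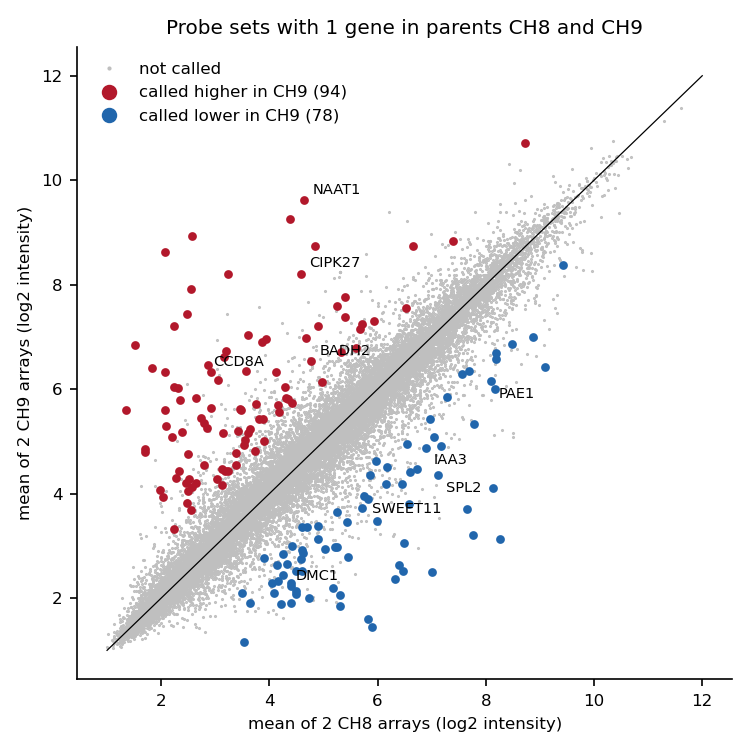
Mean log2 intensity of the 2 CH9 arrays (vertical) against the 2 CH8 arrays (horizontal) for each of the 24080 probe sets with a single gene. Red points (94) were called higher in CH9 and blue points (78) lower, the line marks equal levels, and 9 of the 15 called genes with a name are labelled.

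Only differences of at least 2-fold could be called, so a large size at the called probe sets is no separate result. At least 4-fold differences were found for 50 probe sets higher and 38 lower in CH9, and differences of 16-fold or more for 12 and 6. At 12 of the 94 probe sets called higher, both CH8 arrays lay below the first quartile of their array, and at 7 of these 12 both CH9 arrays lay above the third quartile. Conversely, 12 of the 78 called lower had both CH9 arrays below the first quartile, and 2 of those had both CH8 arrays above the third quartile. At the edge of the rule, the smallest called difference was 2.03-fold and the highest called adjusted p was 0.0495, while 8 probe sets with an adjusted p of at most 0.05 differed by less than 2-fold. One of those was HK3, a gene of a cytokinin receptor kinase, at 7.91 and 8.08 in CH8 against 6.97 and 7.24 in CH9.

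Many calls depended on single arrays. Of the 172 probe sets, 60 stayed called whichever array of CH8 or CH9 was left out, 37 of them higher and 23 lower. Over all probe sets, the higher and lower counts were 190 and 391 without CH8 replicate 1, 97 and 119 without CH8 replicate 2, 86 and 69 without CH9 replicate 1, and 107 and 95 without CH9 replicate 2. No called probe set changed its direction in these fits.

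The largest differences belonged to genes that carry only a locus code in the annotation and whose function is not given there. LOC9270219 on chromosome 11 read 2.22 and 1.91 in CH8 and 8.65 and 8.58 in CH9, a 93.7-fold difference (log2 6.55 ± 0.18 SE, adjusted p = 1.84e-06). CH7 was as high as CH9, with 8.96 and 8.65, and all 6 hybrid arrays lay between 7.80 and 8.69, so CH8 alone was near the floor. LOC4350688, also on chromosome 11, showed the other arrangement. It read 9.03 and 8.85 in CH9, but 2.59 and 2.53 in CH8 and 2.46 and 2.63 in CH7 (83-fold between CH9 and CH8, adjusted p = 1.41e-06). Its level was 7.90 in both CH7/9 arrays and 8.37 and 8.05 in CH8/9, against 2.71 and 2.94 in CH7/8. Among the hybrids, those with CH9 as a parent were thus high and CH7/8 was near the floor, without overlap.

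LOC9269561 on chromosome 12 repeated the first arrangement, at 3.45 and 3.02 in CH8 and 8.31 and 8.11 in CH9, with CH7 at 8.25 and 8.47. LOC4346790 on chromosome 9 was at 1.30 and 1.74 in CH8, 6.70 and 6.97 in CH9 and higher still, at 8.62 and 8.58, in CH7. LOC4351887 on chromosome 12 read 2.68 and 2.43 in CH8 and 8.18 and 7.67 in CH9, with CH7 between them at 5.27 and 6.39. These 5 were the highest differences among genes with a locus code, and each stayed called whichever parental array was left out.

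In the other direction, LOC9266959 on chromosome 11 read 8.05 and 8.47 in CH8 and 3.32 and 2.94 in CH9 (35.1-fold, adjusted p = 0.00344). LOC4346076 on chromosome 8 was at 7.80 and 7.73 in CH8 and 2.91 and 3.52 in CH9. CH7 was low at this gene, with 3.77 and 2.90, and every hybrid array with CH8 as a parent lay between 6.71 and 7.08. LOC4327935 on chromosome 1 read 5.97 and 5.67 in CH8 and 5.78 and 5.94 in CH7, but 1.63 and 1.58 in CH9, so only CH9 was low. Hybrids with CH9 as a parent lay slightly below CH8, at 4.93 and 4.62 in CH7/9 and 4.95 and 5.32 in CH8/9. LOC4343689 on chromosome 7 fell from 6.07 and 5.72 in CH8 to 1.48 and 1.43 in CH9, and LOC4349061 on chromosome 10 from 6.17 and 7.84 to 2.69 and 2.31. The last of these lost its call without CH9 replicate 2 (adjusted p = 0.0591), and the other 4 kept theirs whichever parental array was left out.

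Called genes with a name numbered 15, 8 higher and 7 lower in CH9. They covered metal and ion transport, hormone and calcium signalling, tillering and meristem genes, and a few single enzymes, and they are described below by these roles. At 9 of the 15, the CH7 mean lay nearer that of CH9, so CH8 was the parent that stood apart, and at 6 it lay nearer that of CH8. Only 5 of the 15 (NAAT1, CIPK27, HO2, IAA3 and PAE1) stayed called whichever array of CH8 or CH9 was left out.

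**Figure D2:**
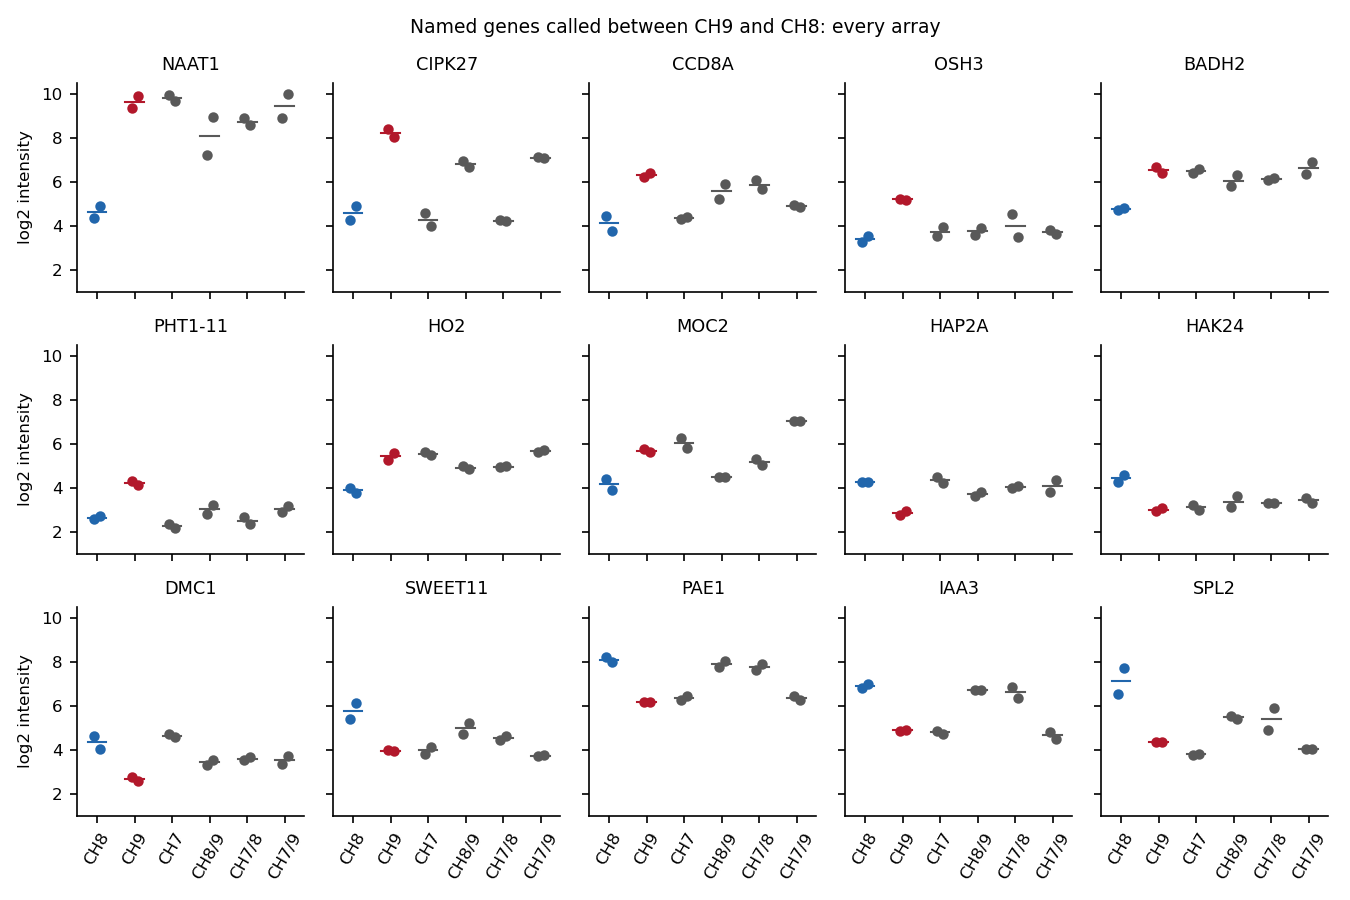
Log2 intensity of the 15 called genes with a name in every array (points) with the mean of each line (bars), ordered from the highest to the lowest difference CH9 minus CH8. CH8 is blue, CH9 red and the other lines grey; the CH8 points of NAAT1 (4.38 and 4.91) lie below those of all other lines, and the CH9 points of CIPK27 (8.39 and 8.04) above them.

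Grasses take up iron by secreting mugineic acids, which chelate ferric iron in the soil, and NAAT1 encodes the nicotianamine aminotransferase of that pathway. NAAT1 read 4.38 and 4.91 in CH8 and 9.35 and 9.89 in CH9, a 31.6-fold difference (log2 4.98 ± 0.54 SE, adjusted p = 0.00325). CH8 was the only line at that level, since CH7 was at 9.94 and 9.69 and all 6 hybrid arrays were at 7.24 or above. It was also the only called gene among 30 of the iron and mugineic acid list. Of these, 3 were higher at an unadjusted p under 0.05 and none lower (10%, against 12.6% of all genes and 15.1% of genes with a name). The list median was 0.00 (between -0.027 and 0.028 on leaving out single parental arrays). NAS1, an enzyme of the preceding step, was near the floor in all 4 parental arrays. The highest adjusted p of NAAT1 on leaving out a parental array was 0.0411. It is also one of 5 root markers measured, and the sum of the other 4 was 63.1 and 77 in CH8 against 127.9 and 68.1 in CH9, so the lines overlapped without it.

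The other ion transporter genes that were called were PHT1-11 and HAK24. PHT1-11, a phosphate transporter that rice induces in mycorrhizal roots, was at 2.57 and 2.70 in CH8 and 4.32 and 4.11 in CH9 (2.98-fold, adjusted p = 0.0079). CH7 read 2.37 and 2.16, and CH9 was the parent that stood apart. The potassium transporter gene HAK24 was lower in CH9, with 4.26 and 4.59 in CH8 against 2.94 and 3.07 (adjusted p = 0.0174), and CH7 was at the CH9 level with 3.23 and 2.98. The adjusted p of PHT1-11 was 0.102 and that of HAK24 0.175 without CH9 replicate 1, and both also lost their call without CH8 replicate 2, HAK24 without CH9 replicate 2 as well. HAK24 was the only called member of 82 nutrient transporters. Of these, 10 were higher and 4 lower at an unadjusted p under 0.05. The background was 6.5% higher and 6.13% lower of all genes, and 201 and 212 of 2742 genes with a name. PHT1-11 was the only called member of 27 phosphate starvation genes.

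CIPK27 encodes a kinase of the family that is switched on by calcineurin B-like calcium sensors. It rose from 4.27 and 4.90 in CH8 to 8.39 and 8.04 in CH9, 12.3-fold (log2 3.63 ± 0.26 SE, adjusted p = 0.000287). The remaining lines fell into the same 2 levels by parentage, with 4.59 and 3.98 in CH7 and 4.25 and 4.24 in CH7/8, against 7.12 and 7.10 in CH7/9 and 6.98 and 6.68 in CH8/9. CIPK27 was the only called member of 37 CIPK and CBL genes, and it ran against the rest of the list, whose median was -0.25 (-0.15 without CH9 replicate 2) and of which 29 lay below 0. Of the others, 6 were lower and none higher at an unadjusted p under 0.05. With CIPK27, 18.9% of the list reached that p, against 12.6% of all genes and 15.1% of genes with a name. CIPK33 differed by -0.36 ± 0.31 (SE, adjusted p = 0.916), at 7.31 and 8.01 in CH8 and 7.22 and 7.39 in CH9.

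IAA3 belongs to the Aux/IAA family, whose proteins repress auxin response until auxin triggers their breakdown. Its level was 6.81 and 6.97 in CH8 and 4.86 and 4.91 in CH9, 4.02-fold lower (log2 -2.01 ± 0.19 SE, adjusted p = 0.00147). As with CIPK27 the lines formed 2 groups, but here by CH8. CH7 and CH7/9 lay between 4.50 and 4.86, and CH7/8 and CH8/9 between 6.36 and 6.87. Among 65 auxin genes IAA3 was the only one called, while 13 were lower and 5 higher at an unadjusted p under 0.05. That p was reached by 27.7% of the list, against 12.6% of all genes and 15.1% of genes with a name. Further Aux/IAA genes, chosen after their values were seen, were high in CH8 as well. IAA24 was at 5.99 and 6.54 in CH8 against 3.94 and 4.39 in CH9 (adjusted p = 0.0579), and IAA9 at 4.60 and 6.66 against 3.02 and 3.27 (adjusted p = 0.0997). The auxin list median was -0.14, and it moved between -0.17 and -0.04 on leaving out single parental arrays.

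Tillers grow out from axillary buds, and strigolactones, made from carotenoids by carotenoid cleavage dioxygenases, hold the buds back. CCD8A, a gene of this dioxygenase family, was at 4.47 and 3.78 in CH8 and 6.23 and 6.42 in CH9 (4.6-fold, adjusted p = 0.00819). CH7 was low, with 4.33 and 4.43. The hybrids did not follow the parents at this gene, since CH7/8 (6.09 and 5.67) lay above both its parents and above CH7/9 (4.95 and 4.87). MOC2, the cytosolic fructose-1,6-bisphosphatase gene whose loss leaves rice plants with few tillers, was at 4.41 and 3.92 in CH8 and 5.76 and 5.63 in CH9 (2.88-fold, adjusted p = 0.0132). At MOC2, CH7/9 (7.04 and 7.05) was above both parents and CH8/9 (4.49 and 4.50) stayed near CH8. The strigolactone and tillering list had a median of 0.05, between -0.078 and 0.12 on leaving out single parental arrays. CCD8A and MOC2 were 2 of its 9 genes, while 0.717% of all genes were called. No other member reached an unadjusted p under 0.05 beside these 2. Both lost their call without CH8 replicate 2 or either CH9 array, where the highest adjusted p was 0.08 for CCD8A and 0.139 for MOC2.

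SPL2, which encodes a squamosa promoter-binding-like transcription factor, was the named gene furthest below in CH9. It read 6.53 and 7.70 in CH8 and 4.35 in both CH9 arrays, 6.8-fold lower (log2 -2.77 ± 0.38 SE, adjusted p = 0.0143). CH7 was lower still, at 3.75 and 3.81, and hybrids with CH8 as a parent lay between 4.87 and 5.88. OSH3, a knotted-like homeobox gene of the class active in the shoot meristem, was at 3.28 and 3.56 in CH8 and 5.22 and 5.19 in CH9 (adjusted p = 0.0443), and no other line exceeded 4.52. OSH3 lost its call when any one of the 4 parental arrays was left out (adjusted p up to 0.296). SPL2 lost it without CH9 replicate 1 (0.117), CH9 replicate 2 or CH8 replicate 2.

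The fragrance of aromatic rice is known to follow from loss of BADH2, a betaine aldehyde dehydrogenase, because its substrate is then turned into 2-acetyl-1-pyrroline. BADH2 read 4.71 and 4.83 in CH8 and 6.67 and 6.40 in CH9, 3.4-fold higher (log2 1.76 ± 0.22 SE, adjusted p = 0.00827). The aromatic parent CH7 was at the level of CH9, with 6.42 and 6.61. The hybrids of CH8 were slightly below, between 5.83 and 6.30. BADH2 lost its call without CH8 replicate 2 or CH9 replicate 1 (adjusted p up to 0.104). Other genes of grain traits that were found were not called. The pericarp pigment genes RC, DFR, F3H, OSB1, OSB2 and C1 were not found by name among probe sets with a single gene. WX1, the granule-bound starch synthase gene whose loss gives waxy grain, was near the floor in these vegetative samples, with 2.08 and 2.12 in CH8 and 2.27 and 2.28 in CH9. The flavonoid genes CHS1, CHI and ANS2, which act on the way to pericarp pigments, gave adjusted p of 0.982, 0.695 and 1. ANS2 was near the floor, and CHS1 varied between the replicates of each line by more than between the lines. CHI did so in CH8, which read 4.47 and 5.83, but not in CH9, which read 4.53 and 4.16.

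HO2, a gene named for heme oxygenase, the enzyme family that opens the haem ring, was at 4.0 and 3.77 in CH8 and 5.27 and 5.60 in CH9 (2.92-fold, adjusted p = 0.00238). CH7 read 5.61 and 5.49, so CH8 stood apart, and its hybrids lay between, at 4.86 to 4.99. PAE1, a pectin acetylesterase gene and the only called member of 61 expansins and wall hydrolases, read 8.19 and 7.99 in CH8 and 6.16 and 6.15 in CH9 (3.83-fold lower, adjusted p = 0.000736). Its lines were again split by CH8, with 7.63 to 8.01 in CH7/8 and CH8/9 and 6.24 to 6.44 in CH7 and CH7/9. The sucrose exporter gene SWEET11 was at 5.37 and 6.12 in CH8 against 3.96 and 3.94 in CH9 (adjusted p = 0.0187). It was the only called gene among 49 of the sucrose and trehalose list, and it lost its call without CH8 replicate 2 or either CH9 array (adjusted p up to 0.15).

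At the last of the named genes, DMC1 and HAP2A, CH9 was the parent that stood apart. DMC1, a recombinase of meiosis, was at 4.63 and 4.02 in CH8, 4.70 and 4.57 in CH7 and 2.74 and 2.58 in CH9 (adjusted p = 0.0121). Rice has near-identical copies of DMC1, and the gene of this probe set carries the names of both, so the copies cannot be told apart. HAP2A read 4.24 and 4.26 in CH8 and 2.75 and 2.95 in CH9 (adjusted p = 0.0141). DMC1 lost its call without either CH9 array (adjusted p up to 0.105), and HAP2A also without CH8 replicate 2 (up to 0.157).

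Beyond single genes, no list of 34 held more than 2 called members, and the lists are described by their medians and by how many genes reached an unadjusted p under 0.05. Over all 23837 genes the median difference was 0.01, 12.6% reached that p and 0.717% were called. The lists hold only genes with a name, of which 15.1% reached that p. Calls were found in 9 of the 34 lists. Genes named below were chosen after their values were seen, except for the member of each list with the lowest p and the genes NCED3, HOX24 and CESA4, which were fixed by name.

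Abscisic acid accumulates under water shortage and switches on late embryogenesis abundant proteins. The 38 genes of this list had the lowest median of all lists, -0.60, with 32 genes below 0. None was called, while 14 were lower and 1 higher in CH9 at an unadjusted p under 0.05. NCED3, which encodes the rate-limiting dioxygenase of abscisic acid synthesis, was at 9.28 and 8.87 in CH8 and 6.55 and 8.10 in CH9 (adjusted p = 0.406). Among response genes, RAB16C read 4.86 and 5.57 against 2.43 and 3.80 (adjusted p = 0.118), RAB21 6.39 and 6.14 against 2.57 and 4.86, and the homeobox gene HOX24 6.94 and 8.20 against 5.64 and 6.15. RAB16C and RAB21 belong to a family of similar neighbouring genes. ABA8OX1, which encodes an enzyme that breaks abscisic acid down, was the gene that was higher in CH9, at 9.14 and 9.08 against 8.44 and 7.97 (adjusted p = 0.184). The CH9 arrays differed from each other at several of these genes, and CH8 replicate 2 mattered most for the median, which was -0.34 without it and between -0.64 and -0.50 without any of the other 3.

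The DREB genes encode transcription factors that respond to cold and drought. Of 12, 7 lay above 0 and 5 below, 5 were higher in CH9 at an unadjusted p under 0.05 and none lower, and none was called. Their median was 0.23, but 0.047 without CH9 replicate 1 and 0.52 without CH9 replicate 2. DREB1G read 3.45 and 3.64 in CH8 and 4.97 and 5.07 in CH9 (adjusted p = 0.0963). It was higher still in CH7/9, at 5.65 and 6.27, than in CH7/8, at 3.81 and 3.53. DREB1E was at 3.84 and 3.54 in CH8 and 5.89 and 5.40 in CH9 (adjusted p = 0.194). For CBF3 the values were 2.79 and 2.92 against 4.30 and 3.69 (adjusted p = 0.0883), and DREB1B and DREB1H were also above CH8 in both CH9 arrays. In these 5, which are the members with an unadjusted p under 0.05, both CH9 arrays lay above both CH8 arrays. This largely follows from how they were picked, so it is no separate result. The lines did not overlap, in either direction, at 45.3% of all probe sets with a single gene.

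WRKY76, a transcription factor gene of defence responses, led a short WRKY list of 6 with a median of 0.53, at 4.27 and 3.80 in CH8 and 6.14 and 5.74 in CH9 (adjusted p = 0.139). That median was 0.23 without CH9 replicate 1. Of the nutrient list, 3 genes of the ZIP family, which transports zinc and iron, read higher in both CH9 arrays than in both CH8 arrays, and none was called. ZIP1 was at 5.59 and 5.79 in CH8 and 7.50 and 8.27 in CH9 (adjusted p = 0.079), ZIP4 at 5.77 and 3.66 against 7.17 and 8.16 (adjusted p = 0.211), and ZIP9 at 3.03 and 3.09 against 5.01 and 7.53 (adjusted p = 0.316). CH8 was the low parent at all 3, since CH7 read 8.20 and 7.94 at ZIP1, 7.33 and 6.30 at ZIP4 and 6.71 and 4.49 at ZIP9. For ZIP4 and ZIP9 the replicates of one line differed by more than 4-fold, so these differences rest on a wide spread.

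**Figure D3:**
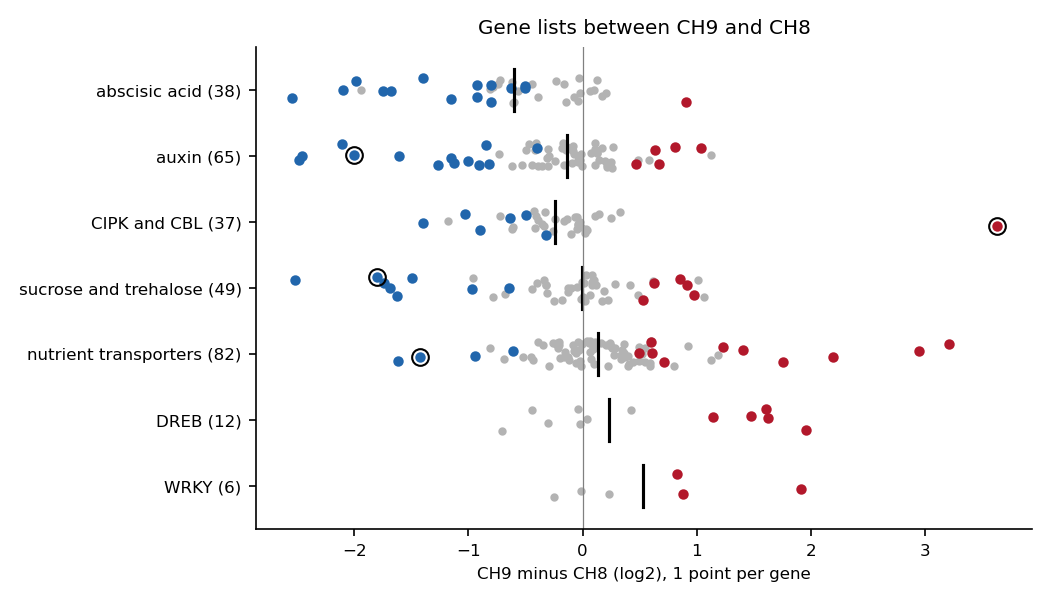
Differences CH9 minus CH8 (log2, horizontal) of the genes of 7 lists, 1 point per gene, with the number of genes in parentheses and the list median as a black bar. Red and blue points had an unadjusted p under 0.05, rings mark called genes, and grey points are the rest; the abscisic acid list has its median at -0.60 and the WRKY list at 0.53.

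Some genes of the floral transition had more signal in CH9 without passing the test. MADS14, which marks the change of the shoot apex towards flowering, read 6.77 and 7.83 in CH8 and 8.76 and 8.78 in CH9 (adjusted p = 0.382), and MADS15 3.79 and 4.86 against 7.46 and 6.67 (adjusted p = 0.377). The floral organ genes MADS1, MADS4, MADS6 and MADS7 were below 3 in all 4 arrays. The summed level of the 6 panicle and flower markers was 138.8 and 273.3 in CH8 and 626.2 and 559.1 in CH9, and its part in other differences was not tested. On the linear scale MADS14 and MADS15 made up most of this sum, and neither was called. Hd1, a photoperiod gene of flowering time, was at 4.22 and 4.80 against 3.74 in both CH9 arrays (adjusted p = 0.321).

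In the remaining lists no gene was called, and the member with the lowest p is given for each. In the cytokinin list this was HK3, given above, which met the p threshold but not the 2-fold rule. BC1L6, of the cellulose and mannan list, read 5.01 and 5.59 in CH8 and 7.09 and 7.10 in CH9 (adjusted p = 0.0612). MT2C, a metallothionein gene, was at 8.41 and 8.33 against 9.43 and 9.34 (adjusted p = 0.079), and AOS3, of jasmonate synthesis, at 4.06 and 4.63 against 3.0 and 3.11 (adjusted p = 0.0858). Of light reaction genes, LFNR1, a ferredoxin-NADP reductase, read 7.37 and 7.38 in CH8 and 8.32 and 8.49 in CH9 (adjusted p = 0.145). For chitinases Cht11 was at 2.82 and 3.60 against 4.77 and 4.79 (adjusted p = 0.111), and for immune regulators NH3 at 5.88 and 6.43 against 8.33 and 7.60 (adjusted p = 0.157). Lignin synthesis was led by CAD6, a cinnamyl alcohol dehydrogenase, at 3.84 and 4.92 against 6.01 and 6.29 (adjusted p = 0.139). In the brassinosteroid list, the receptor gene BRI1 was lower in both CH9 arrays (6.75 and 7.53 in CH8 against 6.14 and 5.94, adjusted p = 0.161). CESA4, a cellulose synthase of the secondary wall, was at 8.18 and 8.56 in CH8 and 6.78 and 7.42 in CH9 (adjusted p = 0.457), above CH7 in both lines. The lowest adjusted p of the other lists without a call lay between 0.12 and 0.695 and belonged to SSI2, CYP714B1, ACS1, CPS4, ALADH, PIP2-7, KIN14O, KRP6, CML29, MADS3, Hd1, HSF07 and CHI. PIP2-7, an aquaporin, showed how far the CH8 replicates could part, since it read 6.94 and 3.64 there.

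The called genes were not spread evenly over the chromosomes, by the positions of the RefSeq assembly ASM3414082v1. Chromosome 11 held 40 of the 172 called probe sets (23.3%) but 5.79% of the probe sets with a single gene. On it 2.87% were called, 20 higher and 20 lower in CH9, against 0.582% on the other chromosomes together. Chromosome 12 followed with 1.37% (18 probe sets) and chromosome 8 with 0.929% (15), and the lowest share was 0.256% (5) on chromosome 5. The 40 probe sets on chromosome 11 measured 40 different genes. At an unadjusted p under 0.05 the contrast between the chromosomes was smaller, with 16.8% on chromosome 11 and 12.3% on the rest.

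**Figure D4:**
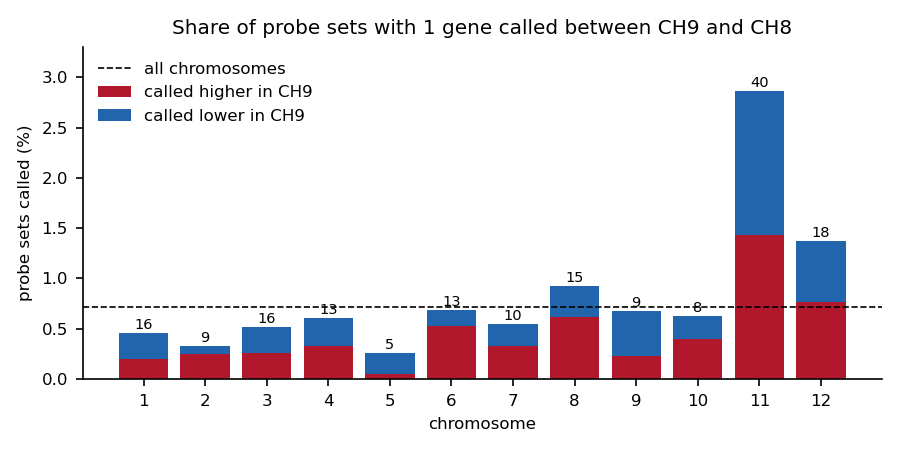
Share of probe sets with a single gene (percent) called higher (red) and lower (blue) in CH9 on each rice chromosome, with the number called above each bar and the share over all chromosomes (0.714%) as a dashed line. Chromosome 11 stands at 2.87% with 40 probe sets, and the others lie between 0.256% and 1.37%.

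The share on chromosome 11 stayed above that of the other chromosomes together without each parental array, but the size of the excess moved. Without CH8 replicate 1, 2.65% were called on chromosome 11 and 1.38% elsewhere, so that the chromosome held 10.6% of 350 calls. Without the other 3 arrays in turn it held 21.2%, 23.9% and 22.7% of the calls. In windows of 1 Mb, 6 of 58, 5 of 58 and 4 of 60 probe sets were called in the 3 with the most calls, all on chromosome 11, and 3 of the 9 windows with 3 calls were on it too. By share, some windows with few probe sets on other chromosomes were higher, such as 2 of 7 on chromosome 10 and 3 of 24 on chromosome 12. Called genes also lay near each other. A called gene had another called gene within 5 positions in gene order in 25.7% of cases (44 of 171), and an uncalled gene in 6.19%. Next neighbours among the measured genes were both called in 5 pairs, 3 of them on chromosome 11, and the members of each pair differed in the same direction.

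The members of these pairs carry locus codes only, and all 5 pairs are given here. LOC9267561, an RNA with no coding region in RefSeq and the neighbour of LOC9270219, read 2.96 and 4.19 in CH8 and 6.16 and 6.53 in CH9 (log2 2.77, adjusted p = 0.0126). As for its neighbour, CH7 was as high as CH9, with 6.74 and 6.26, and every hybrid array was at 5.85 or above. The next pair on chromosome 11, LOC4350125 and LOC4350127, differed by 1.75 and 1.09. LOC4350125 was at 2.37 and 2.67 in CH8 and 4.47 and 4.08 in CH9, and LOC4350127 at 2.22 and 2.24 against 3.38 and 3.24. At both genes CH7 and CH7/9 lay near or above CH9, and CH7/8 and CH8/9 lay between the parents. The pair LOC4350112 and LOC9269730 was lower in CH9, and fell by 2.11 and 1.93 on the log2 scale. LOC4350112 read 4.39 and 4.42 in CH8 and 2.25 and 2.33 in CH9, with CH7 at 2.48 and 2.06.

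On chromosome 12, LOC4351893 and LOC4351897 differed by 1.47 and 3.12. LOC4351893 was at 3.57 and 3.54 in CH8 and 5.02 and 5.03 in CH9, and its call did not depend on any single parental array. LOC4351897 read 3.85 and 2.26 in CH8 and 6.28 and 6.06 in CH9, and CH7 exceeded CH9 at both genes. On chromosome 1, LOC4326148 and LOC4326149 fell by 4.02 and 2.08. LOC4326148 was at 7.45 and 8.82 in CH8 alone, since all 10 other arrays lay between 3.38 and 4.55, the hybrids of CH8 included. Its direction was the same in the hybrids with CH7, but the difference there was only -0.08. Of the 9 further members of pairs beside LOC9270219, LOC4326148 and LOC4351893 were called whichever parental array was left out, and the others were not.

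CH7 did not enter the difference between CH9 and CH8, and its level shows which of the pair it lay nearer. At the 172 called probe sets, each array was placed on a scale from 0 (the CH8 mean) to 1 (the CH9 mean). The CH7 arrays had median positions of 1.03 and 1.02. The CH7 mean was nearer CH9 at 142 probe sets and nearer CH8 at 30, in similar proportions for those higher in CH9 (77 and 17) and lower in CH9 (65 and 13). On chromosome 11 the numbers were 32 and 8. The hybrid CH8/9, also on arrays of its own, had median positions of 0.60 and 0.64, and its mean lay between the parents at 166 of the 172. The scale is built from the parents' own means, which were chosen for being apart, so these positions are a description.

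The hybrids with CH7 offered a related contrast on other plants, since CH7/9 and CH7/8 share the parent CH7 and differ in the other parent. It does not repeat the parental contrast, because both lines are F1 hybrids that also carry the copies of CH7. None of their arrays entered the CH9 and CH8 means, but all entered the spread that both contrasts share. The p-values of the hybrids are therefore not independent of the calls, and the counts by p-value below are a description. Of the 172 called probe sets, 160 (93%) differed in the same direction between CH7/9 and CH7/8, and 118 (68.6%) also reached an unadjusted p under 0.05 there. Over all probe sets, 56.4% had the same direction and 8.05% the same direction with such a p. Of the 23908 uncalled probe sets with a single gene, 60.4% had the same direction, and 2510 also had such a p. Uncalled probe sets with an unadjusted p under 0.05 in the parents, with or without a listed gene, numbered 4529. Of these, 75.2% had the same direction, and 1133 also had such a p in the hybrids. At the 172 called probe sets, the median difference in the parents' direction was 0.83, against 2.01 in the parents. Their share with the same direction was 94.7% for probe sets higher in CH9 and 91% for those lower (95.7% and 85.9% without CH7/8 replicate 2). Without CH7/8 replicate 2, 157 (91.3%) had the same direction with a median of 0.86, and 109 reached that p. Without CH7/8 replicate 1 the count was 151, and without the CH7/9 arrays 150 and 162. By the full rule for calls, 32 of the 172 were called in the same direction in the hybrids, against 14 without CH7/8 replicate 2, 6 without CH7/9 replicate 2, 38 without CH7/8 replicate 1 and 37 without CH7/9 replicate 1. On chromosome 11, 36 of 40 had the same direction, with or without CH7/8 replicate 2.

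**Figure D5:**
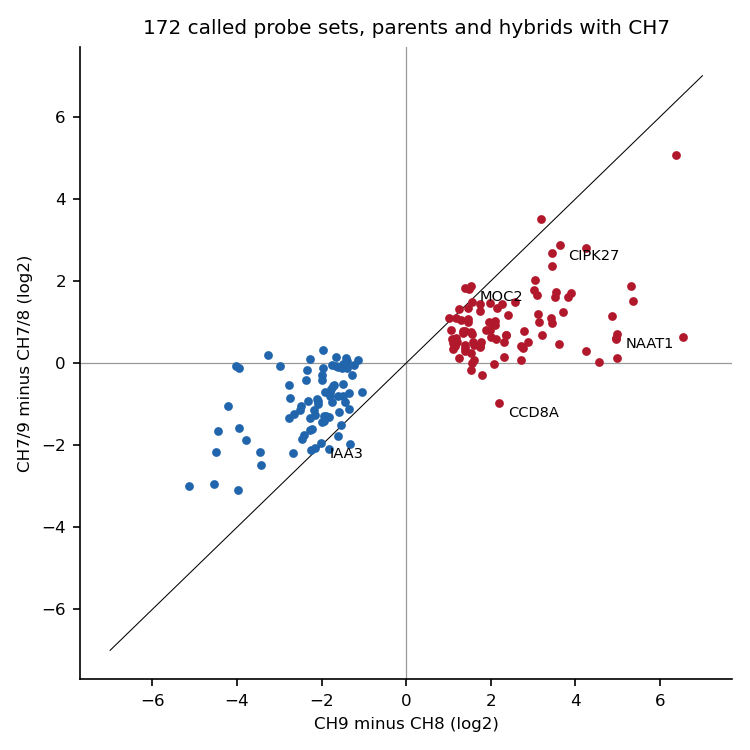
Difference CH7/9 minus CH7/8 (log2, vertical) against CH9 minus CH8 (log2, horizontal) for the 172 called probe sets, red where higher and blue where lower in CH9, with the line of equal differences. Points in the upper right and lower left (160) differ in the same direction, and CCD8A lies below 0 at -0.97.

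Of the 15 named genes, 11 had the same direction in both contrasts, and 10 without CH7/8 replicate 2, where DMC1 changed sides at a difference near 0. CIPK27 (2.87), MOC2 (1.88), IAA3 (-1.96) and PAE1 (-1.42) passed the rule for calls in the hybrids as well, with adjusted p of 0.0052, 0.011, 0.0062 and 0.013. Without CH7/8 replicate 2, CIPK27 (adjusted p = 0.0347) and IAA3 (0.00963) stayed called, and MOC2 (0.0752) and PAE1 (0.0856) did not. Without CH7/9 replicate 2 none of the 4 was called, with adjusted p from 0.0642 to 0.111. NAAT1 differed by 0.71 (adjusted p = 0.63), since CH7/8 was nearly as high as CH7/9. At CCD8A (-0.97), OSH3 (-0.30), HAK24 (0.12) and HAP2A (0.05) the hybrids had the opposite direction, and none of these was called there.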

How the data were processed

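The authors hybridized RNA of whole plants to Affymetrix arrays and deposited 1 table of probe set intensities, on a linear scale, with 2 arrays for each of 6 lines. The study's methods give RMA normalization and the submitters' processing notes name MAS5, so which of them made the deposited intensities is unknown. The values were taken as log2 with no pseudocount and no further normalization. A linear model was fitted over all 12 arrays with limma 3.58.1 in R 4.3.3, with the contrast CH9 minus CH8 and empirical Bayes variances, and p-values were adjusted by Benjamini-Hochberg over 54922 probe sets. The fit was checked on simulated data. Genes came from the platform annotation, and 95 probe sets with several genes and 30747 with none were left out of gene counts. Where a gene had several probe sets, 1 was used. Chromosomes and gene order came from RefSeq assembly ASM3414082v1, and coordinates are not given because no source names the build behind the array annotation. The text names up to 12 called genes with a name and 5 with a locus code in each direction, by size of the difference, the called members (up to 4) or otherwise the member with the lowest p of each list, trait genes and reference genes. Members, lists and tests were chosen with earlier results of these data known, and some list members after their values were seen. Array precision is limited by 2 arrays per line. Alternatives covered normalization, pseudocount, dim probe sets, samples in the fit, variance model, threshold, the methods' SAM test, replicate block and single arrays left out.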

Additional observations from a re-analysis of the deposited data

How the results depend on the processing

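With 166 probe sets called higher and 156 lower in CH9, the counts were 74 and 86 with a pseudocount of 16, 70 and 59 when the CH8 and CH9 arrays alone were fitted, 74 and 70 by ordinary least squares, and 98 and 91 at a threshold of 4-fold. SAM, the methods' test, called 0 and 0, since 2 arrays against 2 allow 6 permutations and its lowest q was 0.333; limma gave 4851 at an unadjusted p under 0.05. Leaving out single arrays gave 86 to 224 higher and 69 to 391 lower, where a lone array of a line is assumed to vary like the other lines. No called probe set changed direction under any alternative. Of the 15 named genes, 4 stayed called when the CH8 and CH9 arrays alone were fitted, where HO2 lost its call. By ordinary least squares 4 stayed called, and NAAT1 did not. PHT1-11 and HAK24 lost their calls when dim probe sets were left out. A replicate block gave 144 and 159, and the numbers did not pair the arrays, since the deviations of CH8 and CH9 correlated at -0.105 and those of all 15 pairs of lines between -0.333 and 0.204. With the numbers of CH9 crossed in the block, chosen after seeing the data, the counts were 139 and 150. Chromosome 11 held 10.6% of calls without CH8 replicate 1, an alternative chosen after seeing the data. The sign of some uncalled trait and reference genes depended on single arrays. On leaving out each CH8 or CH9 array in turn, the difference ranged from -1.09 to 0.27 for CHS1 (also above 0, at 0.07, without CH9 replicate 2), from -0.24 to 0.38 for ACT1, from -0.78 to 0.66 for ACT3, from -0.23 to 0.28 for ACT7 (-0.047 without CH9 replicate 1), from -0.028 to 0.21 for UBQ1 and from -0.045 to 0.29 for UBQ2. The cause was not tested. The number of arrays, 2 per line, limits the precision.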
